A study of Mus musculus with 2 samples.

Results

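The cells described here were CD8 T cells from lymph nodes of mice bearing mammary tumours, chosen by the UMI counts of a few marker genes in each cell. A cell was taken as a lymph node CD8 T cell when it had over 200 detected genes, at most 5% of its unique molecular identifiers (UMIs) in mitochondrial genes, at least 2 UMIs of Cd3d, Cd3e and Cd3g together, at least 2 UMIs of Cd8a and Cd8b1 together, no UMI of Cd4, Foxp3 or Trdc, at most 1 UMI of Cd79a and Cd79b together and under 5 UMIs of Krt8 and Krt18 together. This gate kept 793 of the 11617 cells of the lymph node library, or 6.826% (95% Clopper-Pearson interval 6.374 to 7.3%), out of 24044 cells in the whole series. The series holds 2 droplet libraries of 3′ single-cell RNA sequencing, 1 from primary tumours and 1 from paired lymph nodes, each pooled from the same 6 C57BL/6J mice. All mice carried tumours of EO771-HEVM3, a derivative of the EO771 mouse mammary carcinoma line that had passed through 3 rounds of in vivo selection for cells reaching the lung by way of the lymph node. The study's mice were female and 5 to 6 weeks old when obtained, and EO771 derivatives were placed in the fourth mammary fat pad. No library came from mice without a tumour or with another line, so every cell here shares the tumour-bearing state. Tumours were digested for 2 h with collagenases and hyaluronidase and lymph nodes for 1 h with collagenase, dispase and DNase, both at 37 °C. With 1 library per tissue there was no replicate and no test, tissue, digestion and library cannot be told apart, and every interval given covers counting error only.

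CD8 T cells recognise peptides that MHC class I molecules present and, once activated, kill target cells with perforin and granzymes. Before they meet antigen they recirculate through lymph nodes, entering across high endothelial venules by means of the chemokine receptor Ccr7 among others and leaving by means of the sphingosine phosphate receptor S1pr1. Memory CD8 T cells in mice commonly carry Cd44, Il2rb and Ly6c2 and hold stores of Ccl5 transcript, whereas recently stimulated and exhausted cells carry granzymes, Pdcd1 and Havcr2.

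The 793 cells held 3577659 UMIs, with a median of 3929 UMIs per cell (range 1095 to 59599) and a median of 1335 detected genes. A count of 0 over this group allows a level of up to 0.839 CPM, the UMIs of a gene scaled to 1000000 UMIs of its group. The markers of the gate were not findings, but their spread shows what kind of cell the gate admits. Cd8b1 (chr6:71322788-71337494, plus strand, GRCm38) had a UMI in all but 25 of the 793 cells, whereas Cd8a (chr6:71373427-71379173, plus strand) had none in 335 cells, or 42.24%. Both chains of the CD8 coreceptor were seen in 433 cells, and Cd3e (chr9:44998740-45009627, minus strand) in 554 cells. Of the members, 351 stood at the limit of exactly 2 Cd8a and Cd8b1 UMIs, and 456 cells stood just outside it with exactly 1. For the Cd3 genes, 35 members had exactly 2 UMIs and 16 cells outside had exactly 1. A single Cd4 UMI kept out 15 cells.

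2 comparison groups came from the same gate. Lymph node CD4 T cells had at least 1 UMI of Cd4 and none of Cd8a or Cd8b1 (519 cells, 1872102 UMIs, median 2679 per cell). Primary tumour CD8 T cells met the CD8 gate in the tumour library (245 of 12427 cells, 753034 UMIs, median 2264 per cell). Of the 3155 lymph node T cells by the shared terms of the gate, 1337 had no UMI of Cd8a, Cd8b1 or Cd4 and entered neither group. The libraries shared 47 cell barcodes, 3 of them with a member, and 1 barcode passed the CD8 gate in both. Genes for ribosomal proteins took 43% of the UMIs of lymph node CD8 T cells, 35.3% in lymph node CD4 T cells and 26.1% in tumour CD8 T cells.

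The defining markers of other cells were low but not absent among the members. The B cell list (12 genes) summed to 511.2 CPM against 372.8 CPM in lymph node CD4 T cells and 610.9 CPM in tumour CD8 T cells. After thinning each cell to 1000 UMIs, Ighm had a UMI in 7.75% of members and in 77.2% of lymph node B cells. The NK cell list (5 genes) summed to 46.68 CPM, with Ncr1 and Klra8 at 0, against 19.23 CPM in CD4 T cells and 405 CPM in tumour CD8 T cells. The myeloid list (8 genes) summed to 218.6, 153.3 and 1118 CPM in the same order. The innate-like T cell list (8 genes) stood at 5.311 CPM with Trdv4 at 0, against 1.602 and 118.2 CPM. The cancer cell list (6 genes) stood at 62.61 CPM against 75.85 and 174 CPM. The gate itself fixed Trdc at 0 and capped Cd79a, Cd79b, Krt8 and Krt18 in every group. The innate-like, B cell and cancer cell sums therefore partly report the gate. Stromal and erythroid genes (8 genes) summed to 391.3, 191.2 and 717.1 CPM with Col1a1 and Col3a1 at 0 in the members, and 1 member held 724 of the 728 Hbb-bs UMIs. A pair of members, with 59599 and 23892 UMIs, held 37 and 23 UMIs of Hmga2 and 42 and 12 of Sparc, genes not usual in T cells, together with 77 and 176 Ccl5 UMIs, no Krt8 UMI and 2 Cd8b1 UMIs each.

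Lymph node CD8 T cells carried transcripts of naive and circulating T cells, several at levels close to those of the CD4 T cells beside them. Ccr7 stood at 661.9 CPM (exact Poisson interval 635.5 to 689.1) in CD8 and 634 CPM in CD4 T cells, and a Ccr7 UMI was seen in 653 of the 793 members. Lef1 and Tcf7, transcription factors of naive and stem-like T cells, stood at 400.5 and 190.3 CPM against 333.3 and 241.4 CPM. The survival cytokine receptor Il7r was at 383.8 CPM against 385.7 CPM. Klf2, which maintains S1pr1 transcription, stood at 572.4 CPM against 457.2 CPM, and S1pr1 (chr3:115710433-115715072, minus strand) at 270.8 CPM against 361.6 CPM. Of the 2048 Klf2 UMIs of the members, 509 lay in 55 cells of a subcluster led by Hspa1a, described below. The early activation marker Cd69, whose product holds T cells in the node, stood at 234.2 CPM against 125.5 CPM in CD4 T cells (log2 ratio 0.90, 0.69 to 1.11) and 79.68 CPM in tumour CD8 T cells. After thinning to 1000 UMIs it was seen in 17.7% of members (42.5% unthinned), 11% of CD4 T cells, 6.76% of tumour CD8 T cells and 23.8% of B cells, which also express it. Killing genes were near the bottom of the scale. Gzmb had 65 UMIs in 28 cells (18.17 CPM), 19 of them in 1 cell, and Prf1 had 90 UMIs in 61 cells (25.16 CPM). Gzmc and Gzmf had no UMI in any member.

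**Figure D1:**
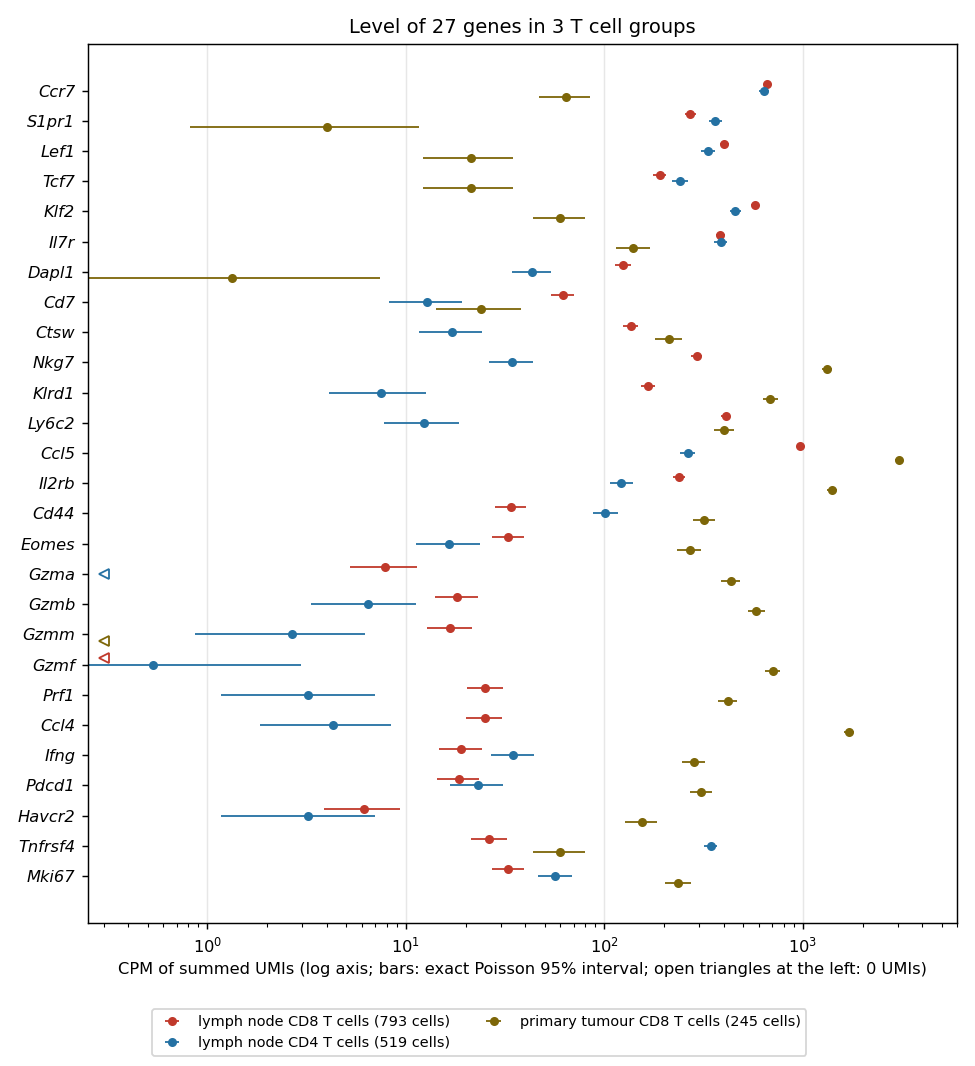
Level of 27 genes in lymph node CD8 T cells (793 cells), lymph node CD4 T cells (519 cells) and primary tumour CD8 T cells (245 cells), as CPM of summed UMIs on a log axis with exact Poisson 95% intervals for counting error, open triangles marking 0 UMIs. The genes from Ccr7 to Il7r lie together in both lymph node groups and lower in the tumour, where S1pr1 stood at 3.984 CPM, whereas Gzma, Gzmb, Prf1 and Ccl4 lie far to the right in tumour CD8 T cells alone.

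The first comparison asked what set lymph node CD8 T cells apart from CD4 T cells of the same library. Of 3901 genes with at least 100 UMIs in either group, gate genes left out, 39 (1.00%) were at least 2-fold higher in CD8 T cells and 118 (3.02%) at least 2-fold lower. The median log2 ratio over all tested genes was −0.18, and with that median set to 0 the split was 62 higher and 88 lower. Without cells holding at least 10 UMIs of other cells' markers or of Hmga2, which left 777 members, 34 genes were higher and 81 lower. Ratios are log2 of CPM over CPM with 0.5 count added to each sum, with exact conditional intervals.

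Among the list genes, Ly6c2, Plac8, Klrd1, Nkg7 and Ctsw were each over 2-fold higher in CD8 T cells. Ly6c2 (chr15:75108158-75111970, minus strand), a membrane antigen of memory CD8 T cells, stood at 407.2 CPM (386.6 to 428.7) in CD8 T cells with a UMI in 321 cells, and at 12.29 CPM in CD4 T cells, a log2 ratio of 5.02 (4.46 to 5.71). A single CD4 T cell held 14 of the 23 UMIs there, and without the top cell of each group the ratio was 6.29. Its neighbour Ly6c1, which is nearly identical in sequence so that reads could be split between the copies, went the other way at 5.87 against 35.79 CPM. Plac8 (chr5:100553725-100572245, minus strand) stood at 212.4 against 6.944 CPM (log2 ratio 4.88, 4.15 to 5.85). Klrd1, the CD94 chain of inhibitory and activating NK receptors (chr6:129591782-129598775, plus strand), stood at 165.2 against 7.478 CPM (4.42, 3.71 to 5.35), with at most 8 UMIs in any cell. The granule genes Nkg7 (chr7:43437073-43438249, plus strand) and Ctsw (chr19:5465043-5468507, minus strand) stood at 291.3 against 34.19 CPM and 135.3 against 17.09 CPM. These 5 transcripts were spread over many cells: a UMI was seen in 461 of 793 cells for Nkg7, 339 for Klrd1, 336 for Ctsw and 330 for Plac8.

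Ccl5 (chr11:83525778-83530518, minus strand), a chemokine stored by memory CD8 T cells, differed from these in how it was spread. It summed to 969.9 CPM in CD8 and 262.8 CPM in CD4 T cells (log2 ratio 1.88, 1.75 to 2.02), but it was seen in only 178 members, and 1 cell held 311 of its 3470 UMIs. The chemokine Xcl1 (chr1:164931644-164935527, minus strand) stood at 37.73 against 7.478 CPM (2.29, 1.54 to 3.24) in 46 members, and at a ratio of 3.77 without the top cells, since 10 of the 14 CD4 UMIs lay in 1 cell. The thymus and gut homing receptor Ccr9 stood at 32.14 against 3.205 CPM (3.22, 2.16 to 4.80) in 74 members, and Dapl1 (chr2:59484653-59505020, plus strand) at 124.7 against 43.27 CPM (1.52, 1.18 to 1.89).

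By list, 3 of the 6 tested genes of the CD8 lineage were at least 2-fold higher (Nkg7, Ctsw and Cd7) and none lower, with a median log2 ratio of 1.60 against −0.18 over all genes. Of 5 tested cytotoxic genes, 3 were higher (Nkg7, Serpinb6b at 45.84 against 16.02 CPM and Serpinb9 at a log2 ratio of 1.04), the latter pair inhibitors that shield a cell from its own granzymes. Only 2 of 17 tested naive genes, Ccr9 and Dapl1, were higher, none were lower, and the list's median was −0.04. The memory list was divided. Ly6c2 and Plac8 were higher, whereas Ly6a (log2 ratio −2.15), S100a4 (−2.01), Cd44 (−1.58), Itgb1 (−1.47) and S100a6 (−1.40) were lower, out of 13 tested. Runx3, which maintains the CD8 lineage, stood at 114.6 against 107.9 CPM (0.09, −0.16 to 0.34), and Eomes at 32.7 against 16.56 CPM.

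Outside the lists, the genes of highest ratio that were carried by many cells have less familiar roles. Bend4 (chr5:67392147-67428310, minus strand), a BEN domain protein gene, had a UMI in 367 of 793 members and stood at 170.5 CPM against 8.012 CPM in CD4 T cells (log2 ratio 4.37, 3.68 to 5.26). Fam241a (chr3:127869058-127896324, minus strand) was seen in 447 members at 227.5 against 31.52 CPM (2.84, 2.47 to 3.26). Tm6sf1 (3.75) ranked between Bend4 and Fam241a. The phospholipid flippase gene Atp8b4 (2.63), Neto2 (2.51), Sidt1 (2.44), the cystatin gene Cst7 (2.02) and the Src family kinase gene Yes1 (1.98) followed. After thinning to 1000 UMIs, Bend4 was seen in 15.7% of CD8 T cells (13.2 to 18.4%), 0.729% of CD4 T cells and 0.136% of lymph node B cells, which should lack most T cell genes (median depths 3929, 2679 and 1854 UMIs). The same rule also named Hbb-bt and Cxcl2, of which 1 member held 182 of 184 UMIs and 9 members held all 104 UMIs, respectively.

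Promoter windows are shown for 3 of the genes named above, as the granule and memory genes that set the members apart from CD4 T cells. They held the letters TGTGGT, the core of the motif bound by Runx factors, on either strand within 250 bases before to 50 after a RefSeq gene start (GRCm38.p6). Each window of 30 bases is read 5′ to 3′ on the strand of its gene, with the match in capitals, which appears as ACCACA where the motif lies on the other strand.
Nkg7, chr7:43437043-43437072, plus strand: gggcccacccctACCACAtaggaggagagg
Ly6c2, chr15:75112133-75112162, minus strand: ggtcccttcccaACCACAgagtcctccctc
Plac8, chr5:100572289-100572318, minus strand: ggtgcctggattACCACAgccaatcagagc
Of 22 named genes at least 2-fold higher in CD8 than in CD4 T cells with and without their top cell, 17 had a promoter in the RefSeq table and 7 held the motif (41.2%): Nkg7, Ly6c2, Plac8, Serpinb9, Xcl1, Cst7 and Yes1. Among all 27025 genes of that table, 5113 (18.9%) held it. A match describes letters and not a bound site.

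Genes of helper T cells were lower in CD8 T cells. The costimulatory receptor gene Tnfrsf4, which encodes OX40 (chr4:156013843-156016612, plus strand), stood at 26.27 CPM in CD8 T cells and 342.4 CPM in CD4 T cells (log2 ratio −3.70, −4.03 to −3.39). Izumo1r (−2.55), the folate receptor family gene of regulatory and anergic CD4 T cells, Rora (−1.56) and Icos (−1.43) were also lower, making 4 of the 5 tested genes of the CD4 list outside the gate. The transcription factor gene Tox and the inhibitory receptor gene Ctla4 stood at 45.28 against 122.3 CPM and 74.63 against 197.6 CPM. Regulatory T cells were kept out of the CD4 group only by the lack of a Foxp3 UMI. Outside the lists, Penk (−4.86, 80 of 310 CD4 UMIs in 1 cell), Areg (−5.25) and the CD30 ligand gene Tnfsf8 (−3.63) were among the lowest. Sostdc1 had no UMI in CD8 T cells and 116 in 25 CD4 T cells, at least 73.9-fold lower by a floor of 3 counts over the group. For Fut7 and Chst4, enzyme genes of high endothelial cells, 274 of 281 and 175 of 180 UMIs came from 1 CD4 T cell.

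**Figure D2:**
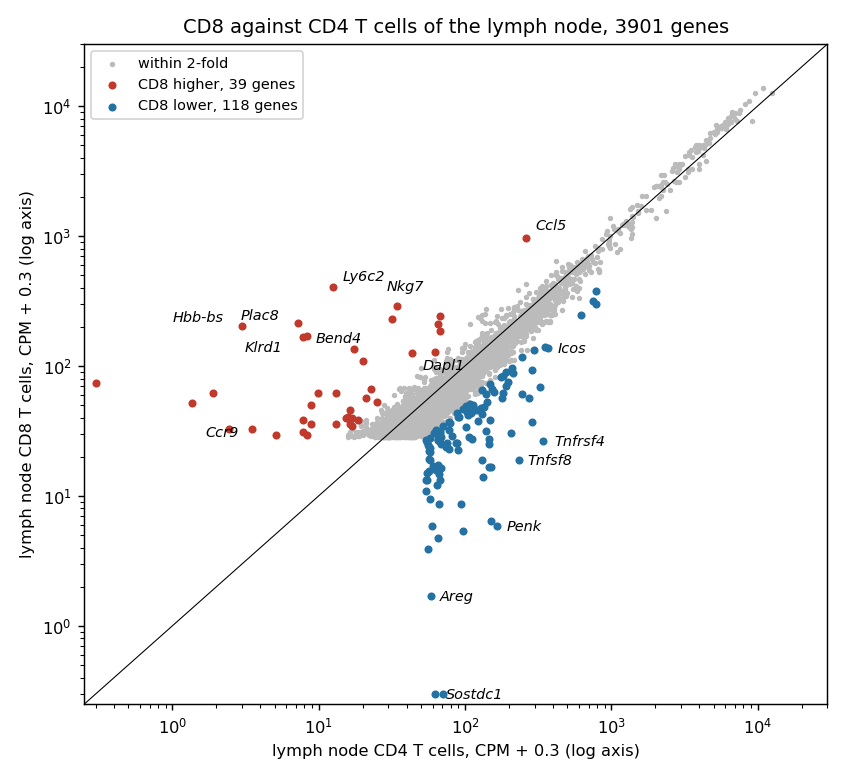
CPM of 3901 genes in lymph node CD4 T cells (horizontal, log axis, 0.3 added) and lymph node CD8 T cells (vertical, log axis, 0.3 added), each point a gene, with 39 genes at least 2-fold higher and 118 at least 2-fold lower in CD8 T cells in colour. Ly6c2, Plac8, Klrd1, Bend4 and Nkg7 lie far above the line, Tnfrsf4, Penk and Areg far below it, and Hbb-bs rests on 1 cell.

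Most tested genes lay within 2-fold (1.00% of all 3901 were higher and 3.02% lower), so a list with no gene 2-fold apart is no result about that list. None of the 14 genes of MHC class I and peptide processing was 2-fold apart, with a median of 0.00, and H2-K1 stood at 1951 CPM in CD8 and 2104 CPM in CD4 T cells. None of 11 activation genes, 12 immediate early genes, 11 heat shock genes and 8 Gimap genes, which encode lymphocyte survival GTPases, reached 2-fold. Of 18 genes of the T cell receptor and its signalling, Cd5, a negative regulator whose level follows receptor signal strength, was 2-fold lower (83.29 against 181.1 CPM, −1.12, −1.35 to −0.89). Of 17 cytokine receptor and JAK-STAT genes, the interleukin 6 receptor gene Il6ra was 2-fold lower (27.39 against 57.16 CPM, −1.06, −1.47 to −0.65). Of 13 interferon response genes, Ifi27l2a (−1.06) and Bst2 (−1.16) were lower. The Bst2 value became 0.24 when cells with over 6000 detected genes were left out.

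The second comparison set the same gate in the lymph node against the primary tumour, and asked how the CD8 T cells of the node stood to those within the lesion. Of 3913 tested genes, 340 (8.69%) were at least 2-fold higher in lymph node CD8 T cells and 602 (15.4%) at least 2-fold lower. The median log2 ratio was −0.20, and with the median set to 0 the split became 465 higher and 427 lower.

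The naive and quiescence list stood higher in the lymph node almost as a whole. Of 17 tested genes, 16 were at least 2-fold higher, none was lower, and the median log2 ratio was 3.12 against −0.20 over all genes. Foxo1, at 0.89 (0.49 to 1.35), was the exception. Ccr7 stood at 661.9 CPM in the lymph node and 63.74 CPM in the tumour (3.36, 2.96 to 3.82). In the tumour 32 of the 48 Ccr7 UMIs lay in 1 of 7 cells, and without the top cells the ratio was 4.89. Lef1 stood at 400.5 against 21.25 CPM (4.19, 3.53 to 5.05). Klf2 was 3.24 and Tcf7 3.12 on the same log2 scale, the latter 3.89 without the top cells. Dapl1, Nsg2 and Ccr9 each had 1 UMI in tumour CD8 T cells and S1pr1 had 3, so that their ratios are wide: 5.97 for Dapl1 (4.07 to 11.86) and 5.87 for S1pr1 (4.54 to 8.37). Il7r stood at 383.8 against 139.4 CPM, the smaller end of the list together with Actn1 (1.20). After thinning to 1000 UMIs, Ccr7 was seen in 45.1% of lymph node CD8 T cells (41.6 to 48.6%) and 1.73% of tumour CD8 T cells, and S1pr1 in 24.8% and 0.528%.

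Killing genes showed the reverse. Of 11 tested cytotoxic genes, 10 were at least 2-fold lower in the lymph node and none higher, with a median of −3.39 whether the genes at 0 were taken at their fitted ratio or at their bound. Gzmb stood at 18.17 against 583 CPM (−4.99, −5.40 to −4.63), Gzma at 7.826 against 432.9 CPM (−5.77) and Prf1 at 25.16 against 418.3 CPM (−4.05). Gzmf (chr14:56205263-56211417, minus strand) had no UMI in the lymph node and 702.5 CPM in the tumour, at least 838-fold lower in the node, and Gzmc was at least 274-fold lower. Few tumour cells carried these levels: Gzmf was seen in 28 of 245 cells, Gzma in 19 and Gzmc in 16, against 107 for Gzmb and 125 for Prf1. A single tumour cell held 94 of the 173 Gzmc UMIs, and without it the tumour level was 107.9 CPM. In the lymph node 15 of the 28 Gzma UMIs lay in 1 cell, and its ratio was −6.52 without the top cells. Gzmd and Gzmg were likewise at 0 in the lymph node. The copies Gzmc, Gzmd, Gzmf and Gzmg are alike in sequence, so their separate levels in the tumour are uncertain. Srgn, the granule proteoglycan gene, was level at 1037 against 922.9 CPM. Gzmm (chr10:79689020-79695261, plus strand) went the other way, with 60 UMIs in the lymph node and none in the tumour, at least 4.21-fold higher in the node.

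Chemokines, inhibitory receptors and NK receptors followed the killing genes. Ccl4 stood at 24.88 CPM in the lymph node and 1702 CPM in the tumour (−6.09, −6.42 to −5.79), Ccl3 at 6.988 against 470.1 CPM and Ifng at 19.01 against 281.5 CPM, and 6 of 8 tested genes of that list were lower. A single member held 35 of the 89 Ccl4 UMIs and a single member 14 of the 25 Ccl3 UMIs, and without the top cells the ratios were −6.71 for Ccl4 and −7.06 for Ccl3. Ccl5 stood closer, at 969.9 against 3036 CPM (−1.65, −1.72 to −1.57). Among checkpoint genes, 6 of 7 were lower, led by Havcr2 (6.149 against 154 CPM, −4.62), Pdcd1 (18.45 against 306.8 CPM, −4.05) and Lag3 (12.58 against 174 CPM, −3.78). Pdcd1 was seen in 1.36% of thinned lymph node CD8 T cells and 29.5% of thinned tumour CD8 T cells. Among NK receptors, 6 of 7 tested genes were lower, from Klrc2 (−5.31) and Klrc1 (−5.23) to Cd226 (−1.92). The UMI minimum also admits genes that are high in the tumour alone. The median log2 ratio was −4.41 over the tested genes and −2.05 over all 17 listed genes.

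The memory list was lower in the lymph node for 14 of 16 tested genes, with a median of −2.55. The myeloid and cancer cell lists were also higher in the tumour group, and the part of other cells' RNA here was not tested. Cxcr6, a receptor of tissue-resident cells, stood at 17.61 against 920.3 CPM (−5.70), S100a4 at 60.93 against 1563 CPM (−4.68), Id2 at 112.1 against 1563 CPM (−3.80) and Cd44 at 33.82 against 317.4 CPM (−3.23). Ly6c2 was level, at 407.2 against 399.7 CPM (0.03, −0.15 to 0.21), and Id3, which opposes effector differentiation, was higher at 52.83 against 6.64 CPM (2.86, 1.74 to 4.63). The Hmga2-bearing pair carried part of the Id3 level. In members with at least 2 Ccl5 UMIs it stood at 86.54 CPM, and at 26.19 CPM without the pair. Of the CD8 lineage list, Eomes (−3.03), Nkg7 (−2.18) and Runx3 (−1.90) were lower and Cd7 (1.33) was higher. In the cell cycle list 12 of 14 tested genes were lower, with Mki67 at 32.7 against 235 CPM. Tap1, Nlrc5, Psmb9, Tap2 and Tapbp, which serve MHC class I peptide processing, loading or induction, were lower (5 of 14), from −1.93 to −1.56, whereas H2-K1 (−0.48), H2-D1 (0.30) and B2m (−0.72) stayed within 2-fold.

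Heat shock genes and some immediate early genes were higher in the lymph node. Of 11 tested heat shock genes 7 were at least 2-fold higher and none lower, with a median of 1.16, and Dnaja1 stood at 1208 against 310.7 CPM (1.96) and Hspa1a (chr17:34969190-34972156, minus strand) at 221.7 against 38.51 CPM (2.50, 1.99 to 3.11). Without 55 members of a subcluster led by Hspa1a (subcluster 5 of the clustering), Hspa1a stood at 16.84 CPM (−1.21) and Hspa1b at 21.86 against 62.41 CPM (−1.52), both lower than in the tumour. The tumour levels of this pair of genes rested on 1 cell each, which held 25 of 29 Hspa1a and 38 of 47 Hspa1b UMIs, and without it they were 5.333 and 12 CPM, below those of the trimmed members. Among the other 738 members, 5 of the 11 genes were higher and 2 lower, and Dnaja1 was at 1.90. Tumour cells were not trimmed in the same way. Fos (2.46), Jun (2.33), Junb (1.23) and Ier2 (1.03) were the 4 of 12 immediate early genes higher in the node, and none was lower. Without subcluster 5, 3 were higher and Zfp36 was lower (−1.02), with Ier2 at 0.91. Of the 37 Fos UMIs of the tumour group, 17 lay in 1 cell, and Fos was 3.25 without the top cells. The digestion was shorter for lymph nodes, and its part in these genes was not tested. Of 17 cytokine receptor and JAK-STAT genes 5 were higher, among them Il6st (58.7 against 2.656 CPM, 2 UMIs in the tumour, 4.15, 2.60 to 7.52), Ifngr2 (2.38), Il7r and Il4ra (1.26). Stat3 (−1.54) and the feedback inhibitor gene Cish (−3.30) were the 2 lower. Of 13 homing genes 6 were higher and Itgal (−2.60) and Itgb2 (−2.11), the chains of the integrin LFA-1, were lower. Over all 3913 tested genes 8.69% were higher and 15.4% lower, so the number of lower genes is no result about either list.

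**Figure D3:**
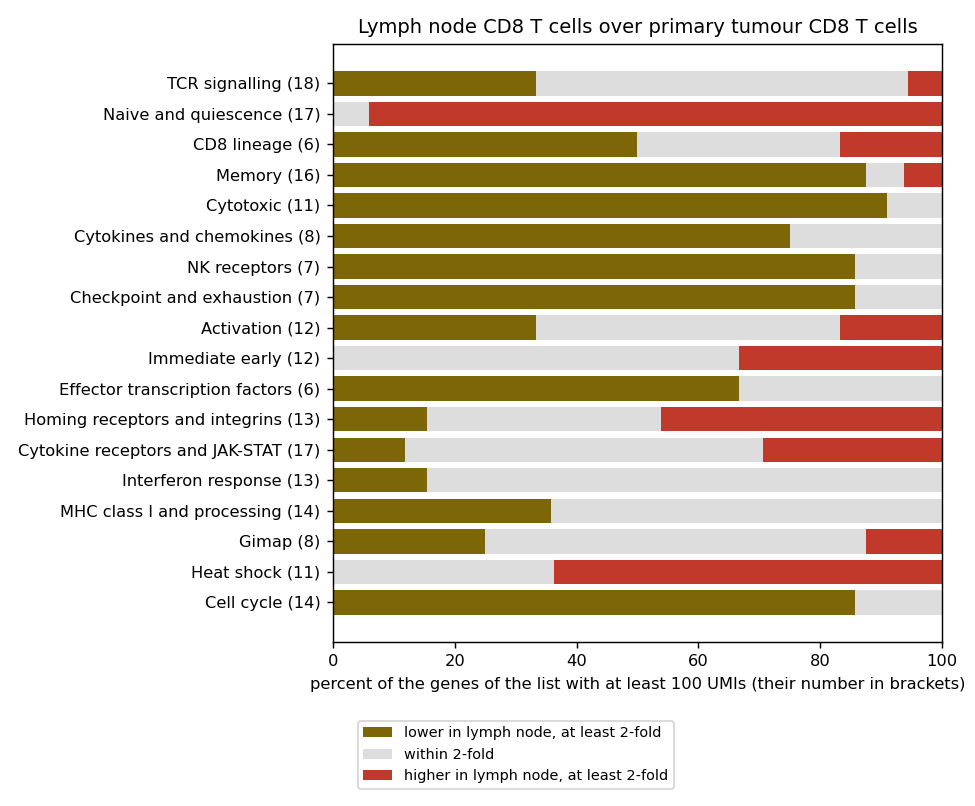
Percent of the tested genes of each list (their number in brackets) that were at least 2-fold lower, within 2-fold or at least 2-fold higher in lymph node CD8 T cells over primary tumour CD8 T cells. The naive list is higher in 16 of 17 genes and the heat shock list in 7 of 11 (5 without subcluster 5), whereas the cytotoxic list is lower in 10 of 11 genes and the cell cycle list in 12 of 14.

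Outside the lists, the genes named as highest in the lymph node by fitted ratio included Gm20696, with 110 UMIs against none and so at least 7.72-fold higher, a bound below the ratios of the others. They were Pik3ip1 (5.05, 3.14 to 10.94), an inhibitor of PI3 kinase signalling, Tdrp (4.87), Cmah (4.82), Atp1b1 (4.80), Acsl3 (4.76), Rflnb (4.75), Pak1 (4.42), Fam241a (4.03) and Aff3 (3.93). Of these, Pik3ip1, Atp1b1, Acsl3, Pak1 and Aff3 had 1 UMI in the tumour. The lowest were Mmp12, Gzmd, Ccl22, Gzmg and Ccl9, each at 0 in the lymph node, then Spp1, 2900026A02Rik, Il1b, Ccl6 and Ifitm1. Mmp12, Spp1, Il1b, Ccl6 and Ccl9 are genes of macrophages or neutrophils, and the myeloid list was higher in the tumour group as given above. The part of other cells' RNA in those 5 ratios was not tested. Without cells holding at least 10 UMIs of other cells' markers or of Hmga2 in both groups, 343 genes were higher and 596 lower, and 5 of the 155 list and named genes that had been 2-fold apart no longer were.

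The members were not alike in Ccl5. At least 2 Ccl5 UMIs were found in 143 of 793 cells (18.03%, 15.42 to 20.89%), 1 UMI in 35 cells and none in 615 cells (77.55%). The 143 cells held 3435 of 3470 Ccl5 UMIs, 98.99%, and 106 of them had at least 5. The cut at 2 UMIs gives a range and not a cell type, and the Ccl5-positive cells were somewhat deeper (median 5018 against 3705 UMIs). Over 4834 genes with at least 50 UMIs in either stratum, 104 (2.15%) were at least 2-fold higher and 102 (2.11%) at least 2-fold lower in the cells with Ccl5. Both Hmga2-bearing cells fell among the 143, and without them the numbers were 52 (1.08%) and 121 (2.5%).

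Genes of several lists were higher with Ccl5, and some of them through the Hmga2-bearing pair. Gzmm stood at 68 CPM (55 UMIs) in cells with Ccl5 and 1.558 CPM (4 UMIs) in cells without, a log2 ratio of 5.29 (4.01 to 7.37) that was 5.45 without the Hmga2-bearing pair. The interferon response gene Oasl1 was next at 4.11, which was 0.77 without the pair, then Ccl4 (91.49 against 5.454 CPM, 4.03). Rsad2, of the same interferon list, stood at 3.89 and at 1.51 without the pair. Gzmb (61.81 against 4.285 CPM, 3.80) followed, then Serpinb9 (2.95), S100a4 (2.90), S100a6 (2.46, and 1.79 without the pair), Serpinb6b (2.32) and the costimulatory receptor gene Tnfrsf9 (2.00). Cd44 stood at 68 against 18.7 CPM (1.86, 1.28 to 2.45) and Ly6c2 at 809.8 against 271.5 CPM (1.58, 1.42 to 1.73). A Ly6c2 UMI was seen in 118 of the 143 cells (82.5%) and in 182 of the 615 (29.6%). Klrd1 and Plac8 differed little, with 0.30 (0.02 to 0.56) and 0.31 (0.06 to 0.54). By list, 5 of 7 tested cytotoxic genes were higher with a median of 2.32 against −0.03 over all genes, and 6 of 13 memory genes were higher, 5 without the pair, since Id3 turned from 1.00 to −0.69. In the cell cycle list 6 of 13 genes were higher, 4 without the pair. Of the genes counted as higher, Gzmm, Gzmb, Serpinb9, Cd44, Mki67 and Birc5 reached 50 UMIs only in the cells with Ccl5. Their place among the tested genes thus rests on the stratum where they were high.

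Transcripts of recirculation were present in the cells with Ccl5. Ccr7 stood at 467.3 against 730.4 CPM (−0.64, −0.81 to −0.48), and was seen in 71.3% of them, and Il7r at 367.2 against 396.6 CPM (−0.11). Of 18 tested naive genes 4 were at least 2-fold lower, Ccr9 (3 UMIs against 111, −3.33, −5.84 to −1.96), Bach2 (−1.18), Dapl1 (−1.11) and Igfbp4 (−1.06). Without the pair 3 were lower, with Dapl1 at −0.96. The αE integrin gene Itgae (6.181 against 35.06 CPM, −2.37, −4.16 to −1.23) and the receptor component gene Ramp1 (11.13 against 57.26 CPM, −2.29) were also lower. Cxcl10 turned from 1.87 to −1.44 when the pair was left out.

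**Figure D4:**
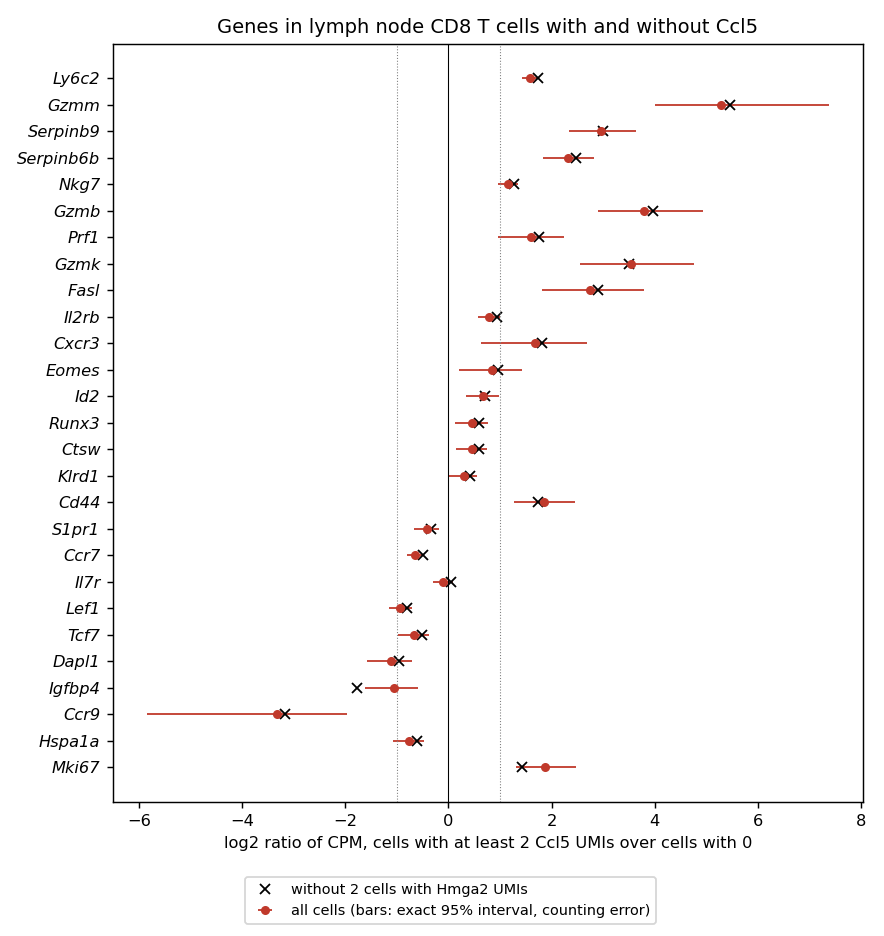
Log2 ratio of CPM in lymph node CD8 T cells with at least 2 Ccl5 UMIs (143 cells) over those with none (615 cells), points with exact 95% intervals for counting error and crosses for the value without 2 cells that held Hmga2 UMIs, dotted lines marking 2-fold. Gzmm, Gzmb and Serpinb9 lie far to the right, Il7r near 0 and Ccr9 far to the left, and the crosses stay near the points apart from Igfbp4 (−1.78) and Mki67 (1.42).

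Unsupervised clustering of the 793 cells, without the gate genes, receptor segments, immunoglobulin and mitochondrial genes, gave 6 subclusters. They are described by number and leading genes, which chose them and so are no test. Subcluster 1 held 374 cells (47.2%, 43.6 to 50.7%), led by Rflnb, S1pr1 (397 CPM), Eif2ak3 and Rras2. Subcluster 2 held 195 cells (24.6%), with Pim1 (762 CPM), Fosl2 (486 CPM) and Kdm6b (469 CPM) among its leading genes. These folds were small, 3.11 for Rflnb and 3.74 for Gm8251 at the most, and Ccr7 stood at 722 CPM in the first and 721 CPM in the second.

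Subcluster 4 held 70 cells (8.83%, 6.95 to 11%), led by Ccl5 at 6813.2 CPM, 35.8 times the mean of the other subclusters, in 69 of 70 cells. Fasl (77 CPM), Gzmm (120 CPM), Serpinb9 (165 CPM) and Runx2 (68.5 CPM) followed, and 65 of its cells were among the 143 with at least 2 Ccl5 UMIs. The other such cells were mostly in subcluster 1 (44 cells). Subcluster 5 held 55 cells (6.94%), led by Hspa1a (3823.5 CPM, 183 times the mean of the others), Hspa1b (2135.1 CPM), Jun (1433.8 CPM) and Dnajb1 (1755.9 CPM), with Klf2 at 2644.3 CPM. Hspa1a and Hspa1b are near-identical copies whose reads could be split. Of the 793 Hspa1a UMIs of all members, 736 lay in these 55 cells.

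Subcluster 3 held 81 cells (10.2%), led by Cd74 (942 CPM), Cst3 (907 CPM), Eea1, Xcl1 (165 CPM) and Tbc1d4, with Bhlhe40, Ikzf2 (348 CPM) and Cd44 further down. In 1 cell lay 248 of its 433 Cd74 UMIs and 340 of its 417 Cst3 UMIs. It held 159 UMIs of the NK cell list, 544 of the myeloid list and 1101 of the B cell list (at most 56, 348 and 540 in 1 cell), and 4 of the 6 members above the 94th percentile of a doublet score. Their part in this subcluster was not tested. Without cells holding at least 10 UMIs of other cells' markers or of Hmga2, no subcluster was led by Cd74 and Cst3, and a subcluster of 75 cells was led by Lag3. Subcluster 6 held 18 cells (2.27%, 1.35 to 3.56%) with a median of 10088.5 UMIs, and had Mki67 in 18 of 18 cells, Stmn1 in 18, Birc5 in 17 and Top2a in 15. Both Hmga2-bearing cells were in it, with 59599 and 23892 of its 267901 UMIs. Without cells holding at least 10 UMIs of other cells' markers or of Hmga2 there were 5 subclusters, the smallest of 57 cells, and Pclaf, a gene of replicating cells, was among the leading genes of the one led by Lag3.

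**Figure D5:**
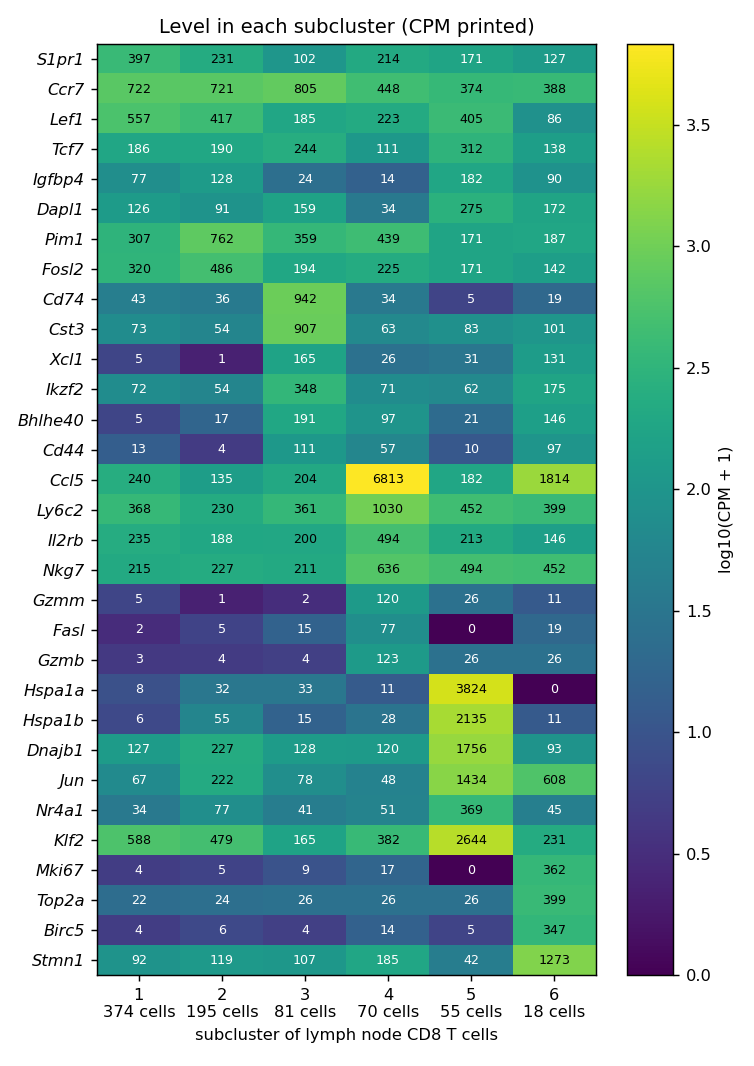
CPM of named genes (rows) in the 6 subclusters of lymph node CD8 T cells (columns, with their number of cells), printed in each field and coloured by log10 of CPM + 1. Ccl5 stands at 6813 CPM in subcluster 4, Hspa1a at 3824 CPM in subcluster 5, Cd74 at 942 CPM in subcluster 3 and Stmn1 at 1273 CPM in subcluster 6, whereas Ccr7 is at 374 CPM or more in all 6.

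Heat shock genes led subcluster 5, and their promoters were read for the heat shock element, searched on both strands as 3 alternating blocks, GAA, TTC and GAA or TTC, GAA and TTC, with any 2 bases between blocks. It was found in 3 of the 8 listed heat shock genes with a RefSeq promoter (37.5%) and in 179 of 27025 genes (0.662%). The windows show the matches in capitals, 5′ to 3′ on each gene's strand (GRCm38.p6). Hspd1 and Hspe1 are divergent neighbours whose windows overlap and are read from opposite strands, so the same stretch was counted for both genes. Each held overlapping matches, of which 1 is shown.
Hspd1, chr1:55088055-55088084, minus strand: gcggggccTTCCGGAAGGTTCtagaacgga
Hspe1, chr1:55088051-55088080, plus strand: acggtccgTTCTAGAACCTTCcggaaggcc
Hsph1, chr5:149636287-149636316, minus strand: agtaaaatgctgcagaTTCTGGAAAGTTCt
Of these genes Hsph1 was among the leading genes of subcluster 5, at 821 CPM. Hspa1a, Hspa1b and Dnajb1, which also led it, were not among the genes with a match, lacking either the motif or a RefSeq promoter.

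The spread of single transcripts over cells was compared with every cell thinned to 1000 UMIs, since depth differs between groups (8 tumour CD8 T cells and 1 CD4 T cell were shallower and left out). Ly6c2 was then seen in 22.1% of lymph node CD8 T cells (19.3 to 25.2%), 0.5% of CD4 T cells and 23.2% of tumour CD8 T cells, and before thinning in 40.5% of the first. Nkg7 was seen in 22.5%, 1.71% and 71% in the same order, and Klrd1 in 14.7%, 0.902% and 47.6%. Ccl5 was seen in 15.5% of lymph node CD8 T cells (13 to 18.2%), 3.28% of CD4 T cells and 70.3% of tumour CD8 T cells, against 2.16% of lymph node B cells. Plac8, at 15.7% of members and 0.642% of CD4 T cells, is also a B cell gene and was seen in 42.4% of B cells. Gzmb was seen in 1.13% of lymph node CD8 T cells, 28.2% of tumour CD8 T cells and 0.0139% of B cells, and Cxcr6 in 1.43% and 63.9% of both CD8 groups.

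Of 165 Trav and Trbv segments in the files, a UMI of any was seen in 167 of 793 members (21.1%, 18.3 to 24.1%) and in 90 of 519 CD4 T cells (17.3%, 14.2 to 20.9%). Trav16 had 22 UMIs in members and Trbv12-2 had 14. Members with more than 1 Trbc2 UMI and no Trbc1 UMI numbered 307, those with the reverse 32, and those with more than 1 UMI of each 266. The CD4 T cells numbered 204, 28 and 142 in the same order. The remaining cells of either group met none of these terms. A cell rearranges 1 productive β chain in most cases, and the Trbc1 and Trbc2 copies are alike in sequence.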

How the data were processed

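The deposited files hold UMI counts per gene and cell for 1 primary tumour and 1 lymph node library of 3′ single-cell RNA sequencing, made by the authors with Cell Ranger on GRCm38. The submitters' processing notes name version 2.1.1, whereas the matrix headers name 5.0.0. The labels give each library's tissue and line, and no cell annotation was used. The gate was applied to raw counts. The members and the 27 gene lists (366 genes) were chosen with earlier results of these data known.

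UMIs were summed over the cells of a group and given as CPM with exact Poisson intervals. Ratios had 0.5 count added to each sum and exact binomial intervals at 95%. Genes with at least 100 UMIs in either group were tested (50 between the Ccl5 strata), and an absolute log2 ratio of at least 1 was called. With 1 library per tissue no p-value was computed. A count of 0 was taken as a floor of 3 counts over the group. Shares are expected shares after thinning to 1000 UMIs, with Clopper-Pearson intervals, and B cells had at least 3 UMIs of Cd79a and Cd79b and no Cd3 UMI. Intervals cover counting error only.

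Named genes were the list genes, the 10 highest and 10 lowest genes by ratio outside the lists in each comparison, and the 10 leading genes of each subcluster of at least 20 cells. Members were clustered with scanpy 1.11.5 (1500 variable genes, 20 components, 15 neighbours, Leiden at 0.5). Leading genes were ranked by CPM relative to the other subclusters' mean, if detected in 25% of cells or more. Scrublet's automatic threshold marked 0 of 11269 lymph node cells and so did not work. No cell was removed as a doublet, and 6 members (0.7566%) lay above the 94th percentile of its score, against 3 of 245 tumour CD8 T cells. The lymph node library held 122207852 UMIs (median 2630 per cell) and the tumour library 173317475 (median 9161). Analyses used python 3.11.15, numpy 2.4.6, scipy 1.17.1 and pandas 2.3.3. Gene coordinates came from GENCODE on GRCm38 and promoters from RefSeq. The statistics were tested on simulated data. Some genes are not reported here.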

Additional observations from a re-analysis of the deposited data

Results flagged for a closer look

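Cxcl10, an interferon-induced chemokine gene, was lower in CD8 than in CD4 T cells of the lymph node and higher in CD8 than in CD4 T cells of the primary tumour. In the lymph node it stood at 56.7 CPM in CD8 T cells (203 UMIs) and 178 CPM in CD4 T cells (334 UMIs), a log2 ratio of −1.65 (−1.91 to −1.40). In the tumour it stood at 70.4 CPM (53 UMIs) against 16.6 CPM (2 UMIs in 40 CD4 T cells), a log2 ratio of 1.78 (0.16 to 5.17). The direction was opposite in the 2 tissues, each with 1 library, and the difference was not tested. A single lymph node CD4 T cell held 217 of the 334 UMIs and a single member held 95 of the 203. In members with at least 2 Ccl5 UMIs it stood at 129.8 CPM, and at 12.41 CPM without the Hmga2-bearing pair. In the tumour a single CD8 T cell held 23 of the 53 UMIs, and leaving that cell out gave 40.6 CPM.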

How the results depend on the processing

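With 1 library per tissue no library could be left out. No paired analysis was possible because each tissue had 1 library, pooled from its mice. A minimum of 1 or 3 Cd8a and Cd8b1 UMIs gave 1249 or 442 members in place of 793. Against CD4 T cells, genes at least 2-fold higher numbered 116 with a minimum of 30 UMIs, 794 with none, 62 with the median set to 0 and 80 with 2 Cd4 UMIs required (39 as reported), and lower genes 387 with a minimum of 30 UMIs and 2262 with none (118 as reported). Against tumour CD8 T cells, higher genes numbered 548 and 1027 with a minimum of 30 UMIs and none (340 as reported), and lower genes 1634 and 4592, or 377 with 3 Cd8a and Cd8b1 UMIs (602 as reported). Subclusters with Ccl5 among their 10 leading genes held 123 cells at resolution 0.3, led by Cst3, and 201 cells with 10 components, in a subcluster led by Ly6c2 (109 cells) and another led by S100a4 (92 cells), against 70 as reported. Cells with at least 1 or 5 Ccl5 UMIs were 22.4% and 13.4% of members (18% with 2). Shares thinned to 500 or 2000 UMIs or not thinned were 12.2%, 18.6% and 22.4% for Ccl5 and 13.8%, 32% and 40.5% for Ly6c2. These follow from the minimum or depth set, and for the subclusters and the median the cause was not tested.

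Log2 ratios to CD4 T cells changed sign for genes carried by few cells. With at most 6000 detected genes, Fut7 became 0.52, Chst4 0.61 and Cxcl12 2.40, and with 2 Cd4 UMIs 0.03, 2.56 and 2.39. With 3 Cd8a and Cd8b1 UMIs Hbb-bt became −0.92 and Cxcl2 −1.26. In settings chosen after seeing the data, Hbb-bt became −0.20 without its top cell, and without cells bearing other cells' markers or Hmga2 the values were −1.06 for Hbb-bt, −0.40 for Cxcl2 and 2.11 for Cxcl12. The cause was not tested. Against tumour CD8 T cells, without subcluster 5 and likewise chosen after seeing the data, Hspa1a became −1.21 and Hspa1b −1.52, since that subcluster was led by them, and without cells bearing other cells' markers or Hmga2 the MHC class II gene H2-Aa, itself among those markers, became 0.27 (−1.08 as reported). Of 55 list and named genes 2-fold apart from CD4 T cells, between 0 and 10 lost that status per setting, and of 155 against tumour CD8 T cells between 0 and 5.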

Other observations

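Codetection within members was also read. Among 250 members with at least 2 Ly6c2 UMIs, Plac8 was seen in 61.2%, against 32.6% of the other members. Among 143 members with at least 2 Ccl5 UMIs, Nkg7 was seen in 80.4% against 53.2% of the others. These shares are not thinned, and cells with more UMIs show more of every transcript. At least 2 Pdcd1 UMIs were found in 13 members, 7 of which (53.8%) had a UMI of Tox, against 16.4% of the other members.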
